A study of Mus musculus with 4 samples.

Results

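The miRNAs described here are the 5 mature products of the miR-199 and miR-214 genes that the arrays measured, mmu-miR-199a-3p, mmu-miR-199a-5p, mmu-miR-199b-5p, mmu-miR-214-3p and mmu-miR-214-5p, written without the species prefix from here on. They were picked by name among the 1881 mouse miRNAs on each array, by a rule that names no measured value but was written with earlier results of these data known, and 4 of the 5 were detected on every array while miR-214-5p was detected on none. The RNA came from the exosome fraction, the vesicles that high-speed centrifugation pellets from culture medium, of 3T3-L1 cells, an established mouse line whose fibroblast-like cells turn into fat-laden adipocytes. D0, D4, D12 and D16 count the days since the cells left growth medium for adipocyte differentiation medium-1, which contained insulin at 10 µg/ml, dexamethasone at 6.4 nM and 1-methyl-3-isobutylxanthine at 0.5 mM and was replaced after 2 days by medium-2 with insulin alone, so that D0 marks the switch out of low-glucose growth medium and the other days were spent in high-glucose medium. Every medium contained 10% exosome depleted FBS. Each day was read on 1 array, and the array was a pool of experiments (3 in the sample labels, 2 in the study's methods), so there is no replicate of any day and no test was made between days.

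A miRNA gene is transcribed into a hairpin, and each arm of the hairpin can yield a mature miRNA that guides silencing complexes to mRNAs matching its seed, the bases near its 5′ end. The 5p and 3p arms of one hairpin are therefore made in equal numbers, and the difference in their amounts comes from how each arm is loaded and how long it lasts. In the mouse, the genes Mir199a-2 and Mir214 lie together inside the long non-coding RNA gene Dnm3os, which is transcribed on the strand opposite to the dynamin gene Dnm3, and this RNA is known from mesenchymal cells such as fibroblasts and the developing skeleton. Both miRNAs are known from fibrosis and skeletal development, and miR-199a and miR-214 are commonly described as a pair that is expressed together.

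The sequences are shown because they tell which of the signals come from 1 gene and which from several. All are RefSeq sequences on the mouse build GRCm38.p6, written 5′ to 3′ with the seed (bases 2 to 8) in capitals. Of the 5 members, 4 had a mature sequence in the table, as had 1608 of the 1881 miRNAs on the array.
miR-199a-5p: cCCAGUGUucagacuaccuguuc
miR-199a-3p: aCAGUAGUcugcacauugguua
miR-214-5p: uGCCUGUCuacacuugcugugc
miR-214-3p: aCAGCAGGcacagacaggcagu
The hairpins of the 2 neighbouring genes carry both arms, with the seeds again in capitals.
Mir199a-2: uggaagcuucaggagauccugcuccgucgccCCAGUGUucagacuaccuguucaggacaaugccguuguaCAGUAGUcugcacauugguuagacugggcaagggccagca
Mir214: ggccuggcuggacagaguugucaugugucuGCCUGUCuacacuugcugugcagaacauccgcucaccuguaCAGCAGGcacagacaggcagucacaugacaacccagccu
The 4 sequences have 4 different seeds, so by seed they are 4 families. In Mir199a-2, miR-199a-5p lies at chr1:162217844-162217866 and miR-199a-3p at chr1:162217883-162217904, both on the plus strand. In Mir214, miR-214-5p lies at chr1:162223397-162223418 and miR-214-3p at chr1:162223438-162223459, on the same strand, and 5444 bases separate the 2 hairpins. Both hairpins lie within Dnm3os on its strand. A second gene, Mir199a-1, gives the same miR-199a-5p (chr9:21496537-21496559, minus strand) and the same miR-199a-3p (chr9:21496498-21496519, minus strand) from within the dynamin gene Dnm2, on the opposite strand. Mir199b, on the strand opposite to the dynamin gene Dnm1, makes miR-199b-3p at chr2:32318524-32318545 on the plus strand, and that sequence is identical to miR-199a-3p. The array has no separate entry for miR-199b-3p, so the miR-199a-3p signal can hold the products of 3 genes on 3 chromosomes. The miR-199a-5p sequence was found without a mismatch in the hairpins of Mir199a-1 and Mir199a-2, whereas in the Mir199b hairpin its match of 23 bases has 1 difference, C10U, counted from 1 at the 5′ end of miR-199a-5p with its base first. That difference lies outside the seed, so the Mir199b hairpin also holds the seed of miR-199a-5p. The mature sequence of miR-199b-5p was not in the table, so its own seed was not read. The sequences of the array's probes were not used here, so how far the probes of miR-199a-5p and miR-199b-5p tell these miRNAs apart was not tested.

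The arrays differed in overall brightness, which bears on every change between days. Of the 1881 miRNAs, 329 were detected on the D0 array, 426 on D4, 406 on D12 and 380 on D16, and the median signal of the 283 miRNAs detected on all 4 arrays was 12.1, 30.8, 24.3 and 17.7 in the same order. Signals are total gene signals in intensity units, background subtracted and not scaled between arrays, and the error given with each is the technical error that the scanner software derived within the array. The D0 array was uneven, with a median coefficient of variation between replicate spots of 21.1% against 7.19 to 8.07% on the other 3 arrays. Among lists of cell type markers, the mesenchymal list was detected in 9 of 17 on the D0 array, 14 on D4, 13 on D12 and 12 on D16, with miR-145a-5p, miR-379-5p and miR-411-5p detected on no array, and none of the 8 epithelial, 6 striated muscle and 3 neuronal miRNAs was detected on any. The haematopoietic list was detected in 1, 3, 5 and 5 of 6, and its summed signal was 9.40, 481, 2592 and 1697 for D0, D4, D12 and D16. Of the 2 endothelial miRNAs, miR-126a-3p was not detected at D0 and then read 13.4, 54.0 and 59.9 while miR-126a-5p was detected on no array, and the liver miRNA miR-122-5p was detected only at D12 (6.26) and D16 (4.13). The part of these other miRNAs in the members' values was not tested.

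miR-199a-3p, the arm made by all 3 miR-199 genes, read 62.8 ± 4.98 on the D0 array, 581 ± 43.3 on the D4 array, 551 ± 41.3 on the D12 array and 356 ± 26.8 on the D16 array. D0 was far below the other 3, D4 and D12 overlapped within their errors, and D16 lay between. The D4 signal was 9.25 ± 1.01 times that of D0, the D12 signal 8.78 ± 0.958 times and the D16 signal 5.67 ± 0.620 times. As a share of the signal of all detected miRNAs on the same array, which removes a difference in overall brightness, miR-199a-3p made up 0.494% on D0, 1.48% on D4, 1.78% on D12 and 1.63% on D16. The share was thus 3.01, 3.61 and 3.30 times that of D0 on the 3 later days, and from D12 to D16 it declined less than the unscaled signal did. All 30 of its spots were well above background on each of the 4 arrays. An amount in a vesicle pellet does not tell whether fewer vesicles or less miRNA in each vesicle lay behind a lower signal.

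The other arm of the same hairpins, miR-199a-5p, read 9.43 ± 1.27 on the day of the switch, 84.0 ± 8.01 after 4 days, 63.7 ± 6.18 after 12 days and 41.2 ± 4.02 after 16 days. It was lowest at D0 and highest at D4, and the signals of D4, D12 and D16 followed each other downwards with gaps larger than the errors. Relative to D0 these signals were 8.90 ± 1.47, 6.75 ± 1.12 and 4.36 ± 0.726 times as high. Its share of the detected signal was 0.0742% at D0 and stayed between 0.188 and 0.215% from D4 to D16. This member was also the least securely measured of the 4, because its second probe passed the detection limit of 3 errors at D4, D12 and D16 but not at D0, where the signal of that probe was 1.00 times its error. The first probe alone, which was detected on all 4 arrays, gave a D4 to D0 ratio of 8.27, and 15 to 23 of the 30 spots were well above background on an array.

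miR-199b-5p, the 5p arm of the third miR-199 gene, gave 13.0 ± 1.59 for D0, 136 ± 10.99 for D4, 171 ± 13.6 for D12 and 113 ± 9.05 for D16. It differed from the other members in having its highest signal at D12 and not at D4. Its ratios to D0 were the highest of the members on each day, 10.4 ± 1.52 for D4, 13.1 ± 1.90 for D12 and 8.63 ± 1.26 for D16. At D4 this place depended on the setting. On the left side of the array its D4 ratio was 12.0, against 12.1 for miR-199a-3p and 12.4 for miR-199a-5p. On the right side it was 7.59, against 6.86 and 7.57 in the same order. Its median spot ratio was 7.67, against 8.24 for miR-199a-3p. The share of miR-199b-5p in the detected signal went from 0.103% through 0.346% and 0.551% to 0.515%, and at D12 it was 5.37 times the D0 share.

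miR-214-3p, the arm of the Mir214 hairpin that was detected, gave 23.5 ± 2.23 for D0, 185 ± 14.8 for D4, 96.1 ± 7.85 for D12 and 52.8 ± 4.39 for D16. D4 stood well above the other 3 arrays, and the signal at D16 was nearer to that of D0 than for any other detected member. Its ratios to D0 were 7.87 ± 0.976 for D4, 4.09 ± 0.512 for D12 and 2.25 ± 0.283 for D16, the lowest of the 4 on each day. Its share of the detected signal was 0.185% on the day of the switch and then 0.473%, 0.310% and 0.241%. By D16 this share was 1.31 times that of D0, whereas the shares of the 3 miR-199 members were 2.54 to 5.02 times their D0 shares.

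**Figure D1:**
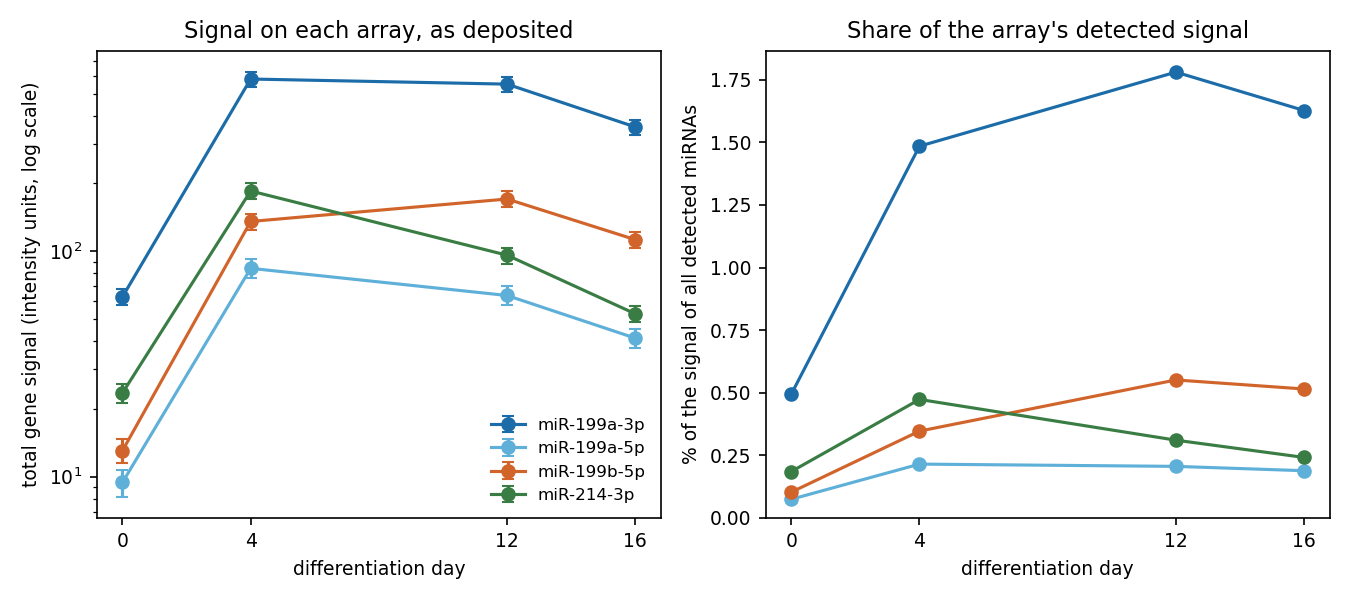
Total gene signal of the 4 detected members on each array in intensity units on a log axis (left, bars are the technical error of the software) and their percentage of the signal of all detected miRNAs (right), against the differentiation day. The 4 signals are lowest at D0; from D4 on miR-199b-5p has its highest signal at D12 (171) while miR-214-3p falls from 185 at D4 to 52.8 at D16.

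miR-214-5p, the opposite arm of the Mir214 hairpin, is listed at 0.1 on each array, the value the software gives to a miRNA that is not detected. None of its 30 spots was well above background on any array. Its 4 probes read 0.644 to 0.812 on the D0 array, 0.593 to 1.09 on D4, 0.719 to 1.15 on D12 and 0.488 to 0.683 on D16, and the highest ratio of a probe to its error was 2.08, 1.93, 2.18 and 1.65 in the same order, short of the limit of 3. The probes were nevertheless all above 0, and their sum was 2.91, 3.35, 3.46 and 2.20 on the 4 arrays. This was higher than the sum of 98.7, 93.7, 97.3 and 91.8% of the undetected miRNAs with 4 probes, miR-214-5p counted among them. The limit of 3 errors for the sum of miR-214-5p, with the errors of the probes taken as independent, was 2.503, 3.61, 3.34 and 2.65, so that the sum passed it at D0 and D12 and not at D4 or D16. Since the software's rule calls this arm not detected on every array, no fold change is given and the arms of Mir214 were not compared over time. The detection limit of a probe of this miRNA was 1.17 to 1.33 at D0 and 1.68 to 1.92 at D4, and a signal below it was not detectable at the brightness of these arrays. miR-761, which has the same seed as miR-214-3p (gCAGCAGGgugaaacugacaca) and is the only array miRNA outside the miR-199 and miR-214 names to share a seed with a member whose sequence was matched, was also detected on no array.

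**Figure D2:**
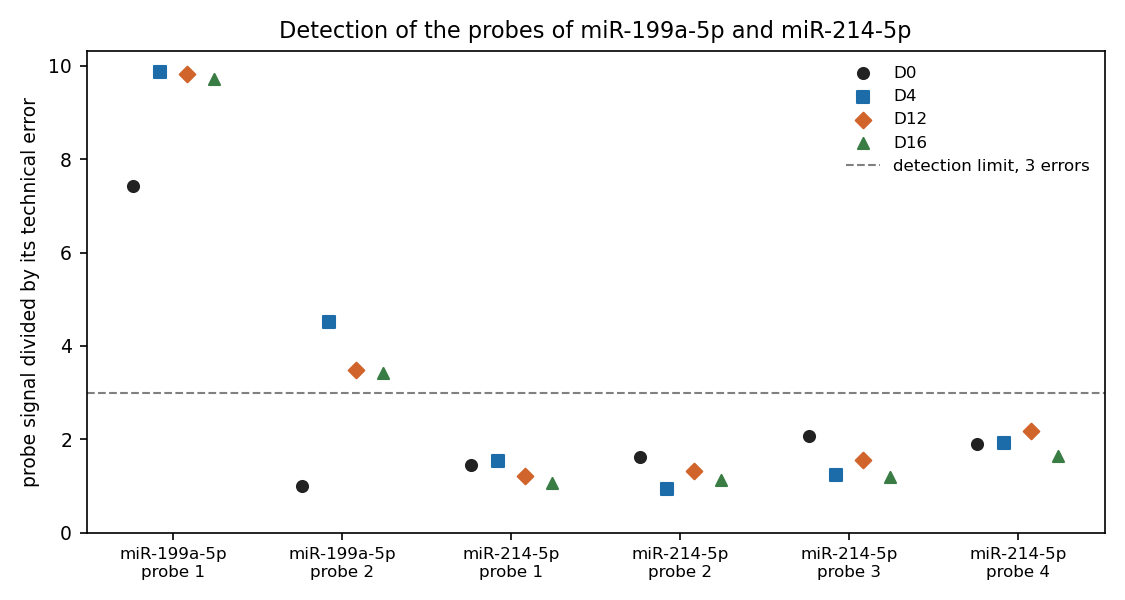
Signal of each probe of miR-199a-5p and miR-214-5p divided by its technical error on the 4 arrays, with the detection limit of 3 errors as a dashed line. The second probe of miR-199a-5p is below the line only at D0 (1.00), and the 4 probes of miR-214-5p stay below it on every array, with a highest value of 2.18.

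Set beside the whole array, the changes of the members against D0 were among the larger ones. At D4, 4 of 4 detected members had an unscaled ratio to D0 above 2, as had 62.1% of the 317 miRNAs detected on both arrays, so that the count itself is near what the array as a whole showed. What stood out was the size, since the ratios of the 4 members (7.87 to 10.4) were higher than those of 92.4 to 96.2% of the 317 miRNAs, whose median ratio was 2.47. At D12, 4 of 4 were again above 2, against 47.8% of 297 miRNAs with a median of 1.91, and none was below 0.5, against 3.37%. The place among all miRNAs now differed between members, from 96.3% of miRNAs below miR-199b-5p to 81.5% below miR-214-3p. At D16, 4 of 4 were above 2 against 31.1% of 289 miRNAs, none was below 0.5 against 9.34%, and 96.2% of miRNAs had a lower ratio than miR-199b-5p but 72.3% a lower one than miR-214-3p. The 3 comparisons share the D0 array as denominator, and their values are not independent of each other.

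Scaling lowered these ratios and decided how many members passed the threshold. With the 75th percentile made equal between arrays, which divides D4 by a factor of 4.26, the D4 ratios were 2.17 for miR-199a-3p, 2.09 for miR-199a-5p, 2.44 for miR-199b-5p and 1.85 for miR-214-3p, while 6.62% of miRNAs were above 2 and 41.3% below 0.5. With the 4 spike-in RNAs made equal, which divides D4 by 1.82, they were 5.08, 4.88, 5.70 and 4.32 in the same order, and 29.0% of miRNAs were above 2. The D12 ratio of miR-199b-5p remained above 2 under each of these scalings, at 3.97 and 7.59, and that of miR-214-3p was 1.24 and 2.37. At D16, miR-214-3p had a ratio of 0.992 after scaling to the 75th percentile, which is no longer above D0. With the spike-in RNAs made equal it was 1.76, below the threshold of 2. The order of the members within a day does not depend on such a scaling, because 1 factor applies to the whole array. With quantile normalization over all miRNAs the D4 ratios were 3.35, 3.00, 3.61 and 2.15 in that order, the D12 ratios 3.35, 2.92, 6.07 and 1.38 and the D16 ratios 3.35, 2.52, 5.76 and 1.01, so that miR-214-3p was above 2 at D4 but not at D12 or D16. The share of all miRNAs above 2 was then 11.7% at D4, 12.8% at D12 and 13.8% at D16. Normexp, a model-based background correction with an offset of 50, changed the order at D4, D12 and D16. It gave D4 ratios of 5.34, 2.03, 3.13 and 3.18, D12 ratios of 5.16, 1.76, 3.83 and 1.98 and D16 ratios of 4.25, 1.60, 3.34 and 1.53. With it 2 members were above 2 at D12 and 2 at D16, and miR-199a-3p, not miR-199b-5p, was the highest on each day. The lowest was miR-199a-5p at D4 and D12 and miR-214-3p at D16.

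Between the later days the comparison leaves out the uneven D0 array. From D4 to D12 no member passed the threshold in either direction, when 4.81% of 374 miRNAs had a ratio above 2 and 15% one below 0.5. Within these limits the members went different ways. The ratio of D12 to D4 was 1.26 ± 0.143 for miR-199b-5p, 0.949 ± 0.100 for miR-199a-3p, 0.758 ± 0.103 for miR-199a-5p and 0.519 ± 0.0593 for miR-214-3p, around a median of 0.865 over all miRNAs. Of the 374 miRNAs, 85.3% had a lower ratio than miR-199b-5p and 15.8% a lower ratio than miR-214-3p, so the 2 lay on opposite sides of the array's middle. From D12 to D16 the members moved together, with ratios of 0.645 ± 0.0685 for miR-199a-3p, 0.647 ± 0.0890 for miR-199a-5p, 0.660 ± 0.0748 for miR-199b-5p and 0.549 ± 0.0641 for miR-214-3p, and none passed a threshold that 0% of 371 miRNAs passed upwards and 7.28% downwards. The array's median ratio was 0.703, so the 3 miR-199 members moved nearly as the whole array did, and 8.09% of miRNAs had a lower ratio than miR-214-3p.

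Over the whole stretch from D4 to D16, 2 of the 4 members had a ratio below 0.5, as had 26.4% of 356 miRNAs, and none was above 2, as were 2.53%. The ratios were 0.285 ± 0.0329 for miR-214-3p and 0.490 ± 0.0669 for miR-199a-5p, against 0.613 ± 0.0649 for miR-199a-3p, 0.830 ± 0.0948 for miR-199b-5p and 0.592 for the median miRNA. The count of 2 became 0 with scaling to the 75th percentile, where 7.58% of miRNAs were below 0.5. Only 9.27% of the miRNAs had a lower ratio than miR-214-3p.

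**Figure D3:**
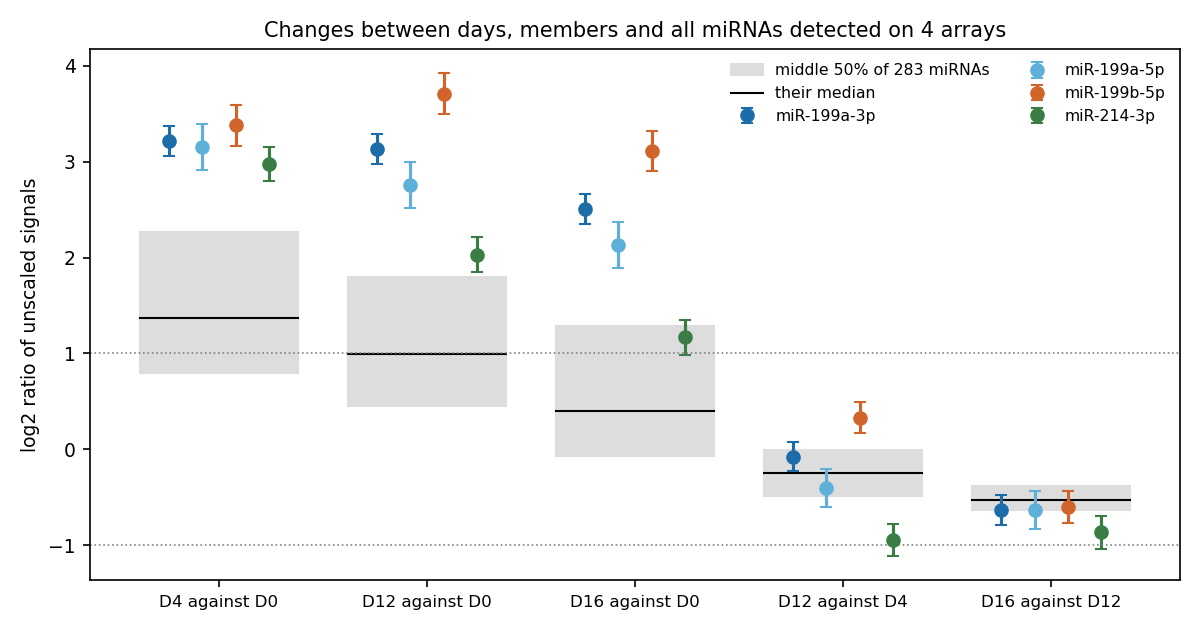
Log2 ratio of unscaled signals between pairs of days for the 4 detected members (points, bars are technical errors), over the middle 50% (grey box) and median (black line) of the 283 miRNAs detected on all arrays, with dotted lines at 2-fold and 0.5-fold. Against D0 the members lie above the box at D4; from D4 to D12 miR-199b-5p is above the box (ratio 1.26) and miR-214-3p below it (0.519).

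Setting the change of one member against that of another removes whatever factor is common to an array, but not an unevenness within it. At D4 against D0 the members could not be separated, since each of the 6 pairs differed by at most 0.40 on the log2 scale and by at most 1.45 times its technical error. The 2 arms of miR-199a stayed close on all days. The change of miR-199a-5p minus that of miR-199a-3p came to -0.06 ± 0.29 for D4, -0.38 ± 0.29 for D12 and -0.38 ± 0.29 for D16 against D0, and -0.32 ± 0.25 from D4 to D12, at most 1.33 errors from 0. These are differences of log2 changes and not of amounts. Because miR-199a-3p can also come from Mir199b, the pair is not a pure comparison of arms. With normexp the 3 differences against D0 were -1.40, -1.55 and -1.41, so that the closeness of the arms against D0 did not hold under that setting. It also added an offset of 50 to every spot, and the part of the offset and of the background model was not tested.

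The 5p arms of the miR-199a and miR-199b genes separated after D4. The change of miR-199b-5p exceeded that of miR-199a-5p by 0.22 ± 0.32 for D4, 0.95 ± 0.32 for D12 and 0.98 ± 0.32 for D16 against D0. The spots of this pair were not spread alike over the uneven D0 array. Each probe of miR-199b-5p had 11 spots on the left and 4 on the right, and the first probe of miR-199a-5p 6 and 9. On the right and left sides alone the differences against D0 were smaller, 0.003 and -0.042 for D4, 0.75 and 0.63 for D12 and 0.81 and 0.65 for D16. Without the D0 array, the difference was 0.73 ± 0.26 from D4 to D12, or 1.66-fold, and 0.76 ± 0.26 from D4 to D16, or 1.69-fold, each 2.86 errors or more from 0. From D12 to D16 it was 0.03 ± 0.26, so the separation was between D4 and D12. miR-199a-3p, to which all 3 genes can contribute, lay between both 5p arms, with miR-199b-5p ahead of it by 0.41 ± 0.22 from D4 to D12.

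The members of the shared Dnm3os transcript also separated after D4. The change of miR-214-3p minus that of miR-199a-5p came to -0.18 ± 0.30 for D4, -0.72 ± 0.30 for D12 and -0.96 ± 0.30 for D16 against D0. Without the D0 array it was -0.55 ± 0.26 from D4 to D12 and -0.78 ± 0.26 from D4 to D16, the latter a 0.582-fold relative change at 3.03 errors. Normexp turned the differences at D4 and D12 against D0 to 0.65 and 0.18, whereas those from D4 to D12 and to D16 stayed below 0, at -0.47 and -0.71. miR-199a-5p is also made by Mir199a-1, and which share of it came from the shared transcript was not tested.

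The widest gap was between miR-214-3p and miR-199b-5p, a pair chosen after its values were seen. Their changes differed by -0.40 ± 0.28 for D4, -1.68 ± 0.28 for D12 and -1.94 ± 0.28 for D16 against D0, and by -1.28 ± 0.23 from D4 to D12. The last value is a 0.413-fold relative change and 5.49 errors from 0, and among the pairs of members it is the one farthest from 0 over these days. The middle 50% of the 283 miRNAs detected on all arrays had log2 ratios of D12 to D4 from -0.49 to -0.01, a width of 0.48. That width describes single miRNAs, so it cannot tell whether a gap between 2 members picked as the farthest apart is unusual.

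**Figure D4:**
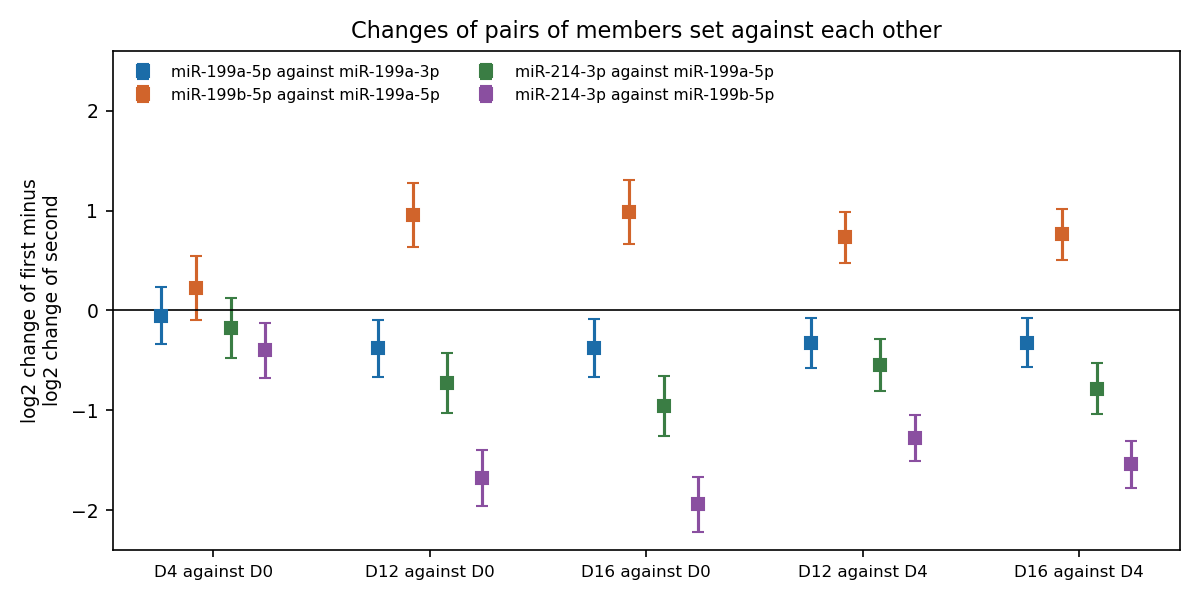
Log2 change of the first member minus that of the second for 4 pairs, by comparison of days, with bars for the technical error. The pairs lie near 0 at D4 against D0, the arms of miR-199a stay within 1.33 errors of 0, and miR-214-3p against miR-199b-5p reaches -1.28 from D4 to D12 and -1.54 from D4 to D16.

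From D4 to D12 the spots behind these signals showed the same order. At D4 against D0 the median spot ratio was higher for miR-199a-3p (8.24) than for miR-199b-5p (7.67), unlike the ratio of the total signals. Each of the 4 detected members had 2 probes with 15 spots each, and a spot lies at the same position on every array. Spot values lack the spot size that enters the total gene signal. That size was estimated at D4 (0.780) and D12 (0.760), whereas 0.6 at D0 and D16 was the software's default. Unscaled ratios of D4 or D12 to D0, and of D16 to D4 or D12, therefore mix an estimated with a default spot size. With the spot size divided out, the ratio of miR-199a-3p, for instance, was 7.12 instead of 9.25 for D4 to D0. For D16 to D12 it was 0.817 instead of 0.645. For miR-199b-5p all 30 spots were brighter at D12 than at D4, with ratios of 1.13, 1.29 and 1.52 for the lowest, median and highest spot. For miR-214-3p none of the 30 was brighter, with ratios of 0.419, 0.544 and 0.950. The 2 sets of spots do not overlap. miR-199a-3p had 6 of 30 spots brighter at D12, with ratios from 0.882 to 1.07, and none of the 16 spots of miR-199a-5p that were well above background on both arrays was brighter, with ratios from 0.718 to 0.937. Both probes of a member gave like ratios of D12 to D4, 1.32 and 1.24 for miR-199b-5p and 0.490 and 0.529 for miR-214-3p. From D4 to D16, 28 of 30 spots of miR-199b-5p were brighter, with a median ratio of 1.10, while its total signal had a ratio of 0.830. The direction of this change therefore turns with the spot size, and it is not given as a change of the miRNA. The spots of miR-214-3p were dimmer at D16 than at D4 in 30 of 30, with a median ratio of 0.370.

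The unevenness of the D0 array was visible in the members themselves. The 7 detected probes had spots on the right side of the D0 array that were 1.39 to 1.93 times as bright as those on the left side, against ratios of 0.976 to 1.13 on the D4 array, 0.823 to 1.01 on D12 and 0.950 to 1.12 on D16 over 8 probes. The first probe of miR-199a-3p, for instance, averaged 80.0 over 9 spots on the left and 142 over 6 on the right. The D4 ratio to D0 changed with it, being 6.86 on the right and 12.1 on the left for miR-199a-3p and 6.36 and 9.45 for miR-214-3p. All 30 spots of each of the 4 members were nevertheless brighter at D4, D12 and D16 than at D0. From D4 to D12 the sides gave nearly the same ratio, 1.22 and 1.27 for miR-199b-5p and 0.518 and 0.521 for miR-214-3p on the right and left.

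**Figure D5:**
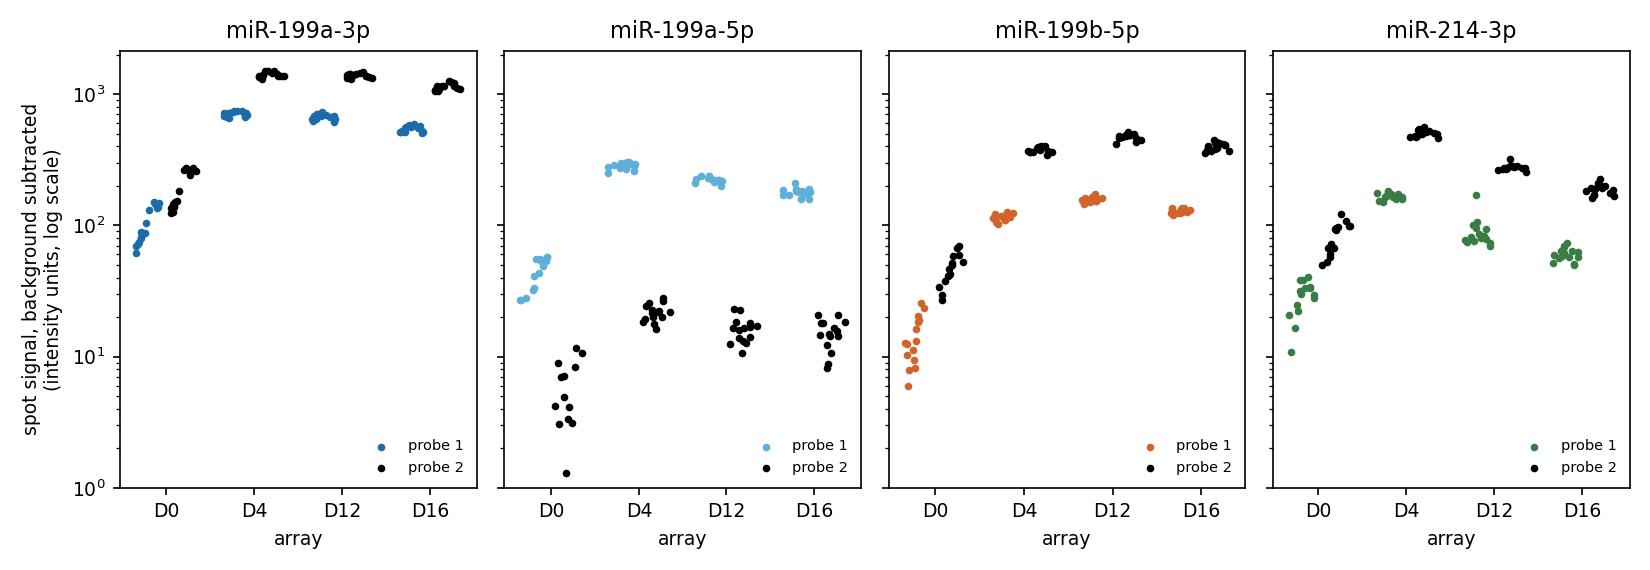
Background-subtracted signal of every spot of the 4 detected members on each array (log axis), with the 15 spots of a probe spread sideways by their column on the array from left to right, and 2 spots of miR-199a-5p at or below 1 at D0 not drawn. The D0 spots climb from left to right, those of the other arrays are nearly level, and from D4 to D12 both probes go up for miR-199b-5p and down for miR-214-3p.

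The profiles of the members were also compared with those of all 283 miRNAs detected on the 4 arrays, by the root mean square difference of their log2 ratios to D0 at D4, D12 and D16, a description over 3 points that share the D0 array. The nearest to miR-199a-3p were miR-5624-5p (0.17), miR-30d-5p (0.22) and miR-669b-3p (0.22), and the nearest to miR-199a-5p were miR-297a-3p (0.08), miR-15b-5p (0.11) and miR-669l-3p (0.11). miR-199b-5p lay nearest to let-7a-5p (0.18), miR-25-3p (0.21) and miR-107-3p (0.21). miR-214-3p lay nearest to miR-125a-5p (0.15), miR-99b-5p (0.23) and miR-24-3p (0.30). No member was among the 3 nearest of another. The arms of miR-199a were 0.31 apart, and miR-199a-3p ranked 11 among the neighbours of miR-199a-5p. miR-199a-5p and miR-214-3p were 0.70 apart. miR-199b-5p and miR-214-3p were 1.50 apart, and miR-199b-5p ranked 166 among the neighbours of miR-214-3p.

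The list of other miRNAs known from mesenchymal cells and fibroblasts gives a frame for the cluster. Of its 17 members, 9 were detected at both D0 and D4, and 9 of 9 had an unscaled ratio above 2, from 4.88 for miR-221-3p to 7.42 for miR-34a-5p with a median of 5.68. Of all 317 miRNAs detected on both arrays, 62.1% were above 2. All 4 detected members of the cluster had a higher ratio than each of the 9 of the list. At D12 the list's ratios to D0 ranged from 1.62 for miR-29a-3p to 9.30 for miR-130a-3p, with a median of 3.83, 8 of 9 above 2. Over all 297 miRNAs detected on both arrays, 47.8% were above 2. Of the 9, none was above miR-199b-5p, 2 were above miR-199a-3p, 2 above miR-199a-5p and 4 above miR-214-3p, and at D16 against D0 these counts were 0, 2, 3 and 7. From D4 to D12, 13 of the list were detected on both arrays, with a median ratio of 0.784, 1 above 2 and 3 below 0.5, and 10 of the 13 had a higher ratio than miR-214-3p. Among all 374 miRNAs, 4.81% were above 2 and 15% below 0.5. From D4 to D16, 11 of 12 had a higher ratio than miR-214-3p and 5 of 12 a higher one than miR-199b-5p. The list was chosen with earlier results of these arrays known, and nothing particular to it is drawn from these counts.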

How the data were processed

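The authors labelled RNA of the exosome fraction with Cy3, hybridised 1 mouse miRNA array (56430 spots) per day and deposited the intensity output of Agilent Feature Extraction 11.0.1.1, with background subtracted and no scaling between arrays. The deposited total gene signal of a miRNA is the sum over its probes above 3 times their error, or 0.1 where none is, and this rule gave the software's call for all 1881 miRNAs. Samples were grouped by the day in their labels.

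Unscaled ratios were computed because the study states no step but dividing each signal by that of D0. No scaling of its arrays before that is stated in the sources used here, and the unscaled ratios are not to be read as the study's own ratios. The members' ratios to D0 are lower after percentile, quantile and spike-in scaling. Ratios had thresholds of 2 and 0.5 for miRNAs detected on both arrays. Technical errors were propagated from the software's and cover variation within an array. No array was saturated at a spot. Python 3.11.15, numpy 2.4.6, pandas 2.3.3, scipy 1.17.1, and limma 3.58.1 in R 4.3.3 for normexp were used. The code of the calls was run on simulated data for D12 against D0 over 329 miRNAs, recovering 30 of 30 raised and 30 of 30 lowered by 6-fold. A 6-fold change lies far past the threshold of 2, and neither a brightness difference between arrays nor an uneven array was simulated for the calls. The run therefore checks the calculation and says nothing about the calls on these arrays.

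The members and lists were chosen with earlier results of these data known. The miRNAs named are the members, array miRNAs sharing a seed or name with them, the 3 nearest profiles of each member, markers detected on no array, markers of lists with fewer than 4 detected, and the ends of the mesenchymal list, the last chosen after their values were seen. Sequences and positions are from RefSeq tables of GRCm38.p6. No position was taken from the array header, whose build differs.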

Additional observations from a re-analysis of the deposited data

How the results depend on the processing

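With 1 array per day there is no error between cultures, and the technical error bounds only the variation within an array. No paired analysis was possible because each day had 1 array. Leaving out a replicate was not possible, and miR-214-5p against miR-214-3p gave no value under any setting, since miR-214-5p was not detected. The depth of an array is its signal over background, which limits miR-199a-5p at D0 and miR-214-5p on every array. The settings added after seeing the data were the comparisons of D16 with D4 and of arms from D4, the pair of miR-214-3p and miR-199b-5p, quantile normalization of the subset detected on all 4 arrays, and the brighter probe. Of the counts and pairs, 185 alternatives left the value near the reported one, 44 moved it and 3 turned its sign. A count of 3 members in place of 4 was taken as near. The ratios of single members were less stable. For them 96 alternatives stayed within the technical error, 191 moved the ratio by more than that and 1 turned its direction. The cause was not tested.

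The 4 members above 2 became 2 at D12 and 2 at D16 against D0 with normexp, and 2 at D16 with the 75th percentile, where the D16 ratio of miR-214-3p was 0.992. With that percentile, 11.4% of 289 miRNAs were above 2 at D16 against D0. No share of all miRNAs is given for normexp. The 4 became 3, without miR-214-3p, at D4 with the 75th percentile (6.62% of all miRNAs above 2). At D12 the count was 3 with the 75th (10.1%) and 90th percentile (14.5%) and either quantile normalization (12.8% and 17.0%). At D16 it was 3 with the 90th percentile (14.5%), the spike-in RNAs (23.2%) and either quantile normalization (13.8% and 18.7%). The right side and a margin of 2 technical errors also gave 3 at D16. The 2 members below 0.5 at D16 against D4 became 0 with the 75th and 90th percentile and 1 with the spike-in RNAs, the spot size divided out, either quantile normalization, the median spot ratio, the left side of the array, normexp, or a margin of 2 technical errors. Of 356 miRNAs, 7.58% and 7.87% were below 0.5 with the 75th and 90th percentile. The share was 14.9% with the spike-in RNAs, 17.1% with the spot size divided out and 9.27% with quantile normalization over all miRNAs.

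For the differences of log2 changes, miR-199a-5p against miR-199a-3p was -0.47, -0.78 and -0.81 at D4, D12 and D16 against D0 with the median spot ratio, and -1.40, -1.55 and -1.41 with normexp, which here includes an offset of 50. It was -0.093 at D12 against D0 and 0.022 at D12 against D4 with quantile normalization of the subset detected on all 4 arrays, -0.038 at D12 against D4 with that over all miRNAs, and -0.017 at D16 against D4 with normexp. miR-199b-5p against miR-199a-5p was 0.63 and 0.65 at D12 and D16 against D0 on the left side, and 0.62 at D4 against D0 and 0.44 at D16 against D4 with normexp. miR-214-3p against miR-199a-5p was -0.48, -1.08 and -1.31 at D4, D12 and D16 against D0 with quantile normalization over all miRNAs, -0.49, -1.14 and -1.38 over the subset, and 0.65, 0.18 and -0.065 with normexp and its offset, so that its direction at D4 and D12 against D0 turned under that setting. miR-214-3p against miR-199b-5p was -0.75, -2.13 and -2.51 with the first quantile normalization, -0.77, -2.16 and -2.49 with the second, and 0.023, -0.95 and -1.13 with normexp, which gave -0.97 and -1.15 at D12 and D16 against D4.

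From D4 to D12 the separation kept its direction under the 8 alternatives run, with 0.50 to 0.79 for miR-199b-5p against miR-199a-5p and -0.65 to -0.47 for miR-214-3p against miR-199a-5p.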
